A study of Danio rerio with 4 samples.

Results

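The genes described here are those of the Wnt and Hedgehog signalling pathways that a short oligonucleotide array measured in the heart region of zebrafish embryos. They were chosen by gene symbol: a probe set was taken when its 1 current symbol named a Wnt ligand, receptor, inhibitor or transducer, a planar polarity gene of the prickle or vangl families, or a Hedgehog ligand, receptor or transducer. This gave 63 probe sets for 55 genes of 8793 named genes on the array, and each gene was represented by its brightest probe set. Of the 55, 43 belong to the Wnt list and 12 to the Hedgehog list. Wild-type embryos were kept in 10 μM SU5402, a small molecule that blocks signalling by receptors for fibroblast growth factors (FGF), diluted from a 1 mM stock in DMSO, or as siblings in 1% DMSO, both in E3 medium. Hearts with the tissue around them were taken by syringe at 48 hours post fertilization. Each group had 2 replicates on 1 array each. The labels give neither the start and length of exposure nor the number of embryos behind an array, the whole embryo was exposed, and the 2 arrays of a group may differ only technically.

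In the Wnt pathway, secreted ligands bind Frizzled receptors and LRP co-receptors on the cell surface. Dishevelled proteins then inhibit a complex of Axin, APC and GSK3 that otherwise destroys beta-catenin, and beta-catenin enters the nucleus and joins TCF and LEF factors. Other Wnt ligands work without beta-catenin, through the planar polarity proteins Prickle and Vangl, and are known for cell movements and cell orientation. In the Hedgehog pathway, a secreted ligand relieves the inhibition of Smoothened by Patched, which changes the Gli transcription factors from repressors to activators. In the zebrafish embryo beta-catenin signalling is known at the atrioventricular canal of the heart, and Sonic hedgehog in the ventral neural tube, the pharyngeal endoderm and the posterior edge of the fin bud.

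Each value is the linear intensity of a probe set. Differences subtract DMSO from SU5402 after log2(intensity + 16), so changes of dim genes come out too small, and levels of different probe sets cannot be compared. The number of arrays limits the precision: at an adjusted p under 0.05 in limma, 0 of 8793 named genes (0.0%) were called, against 467 higher and 707 lower at an unadjusted p under 0.05, and the lowest adjusted p was 0.255. A count at an unadjusted p under 0.05 is therefore used as a description and is set beside the same count over all named genes. An exact permutation of 2 against 2 arrays cannot give a two-sided p below 0.333. As a measure of background, control probe sets for Tag sequences had a 95th percentile of 136 in intensity, called the Tag level here.

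Marker genes of several tissues differed in level between the groups. Heart muscle was present, with 8 of 9 listed markers measured and only nkx2.5 below the Tag level on all 4 arrays. The summed intensity of these 8 markers was 36717 and 30937 in the SU5402 arrays and 15424 and 7313 in the DMSO arrays, and all 8 were higher at an unadjusted p under 0.05 in limma. Over all named genes, 5.31% were higher and 8.04% lower at that p, which the marker counts below also use. The 8 neuron and glia markers summed to 22232 and 13488 with SU5402 and to 9332 and 7785 with DMSO. Of these, 4 of 8 were higher, the neuronal genes syt1a, stmn2a, elavl4 and snap25a. In the other direction, sox10 had 689 and 444 with SU5402 and 1213 and 739 with DMSO, without overlap (-0.76, interval -1.75 to 0.23). Lower in the SU5402 arrays were 3 of 3 fin fold markers, with sums of 349 and 4661 against 25749 and 41590 in DMSO. Also lower were 4 of 7 cartilage and neural crest markers, namely prrx1b, barx1, col2a1a and runx2a. The 7 summed to 2156 and 2017 with SU5402 and to 7827 and 9907 with DMSO. These DMSO sums came largely from prrx1b (1627 and 3405) and runx2a (2182 and 3588). Of the 7, matn1 was the 1 with a difference above 0 (0.10, with overlapping groups). Lower too were 2 of 3 endothelial markers (sums of 473 and 435 with SU5402, 1381 and 1084 with DMSO). Epidermal markers differed more between the SU5402 arrays than between groups (14783 and 48154 with SU5402, 38886 and 39701 with DMSO). The SU5402 arrays also differed in the liver and yolk markers, which summed to 5611 and 1377 with SU5402 and to 1454 and 903 with DMSO. The markers mbpa of glia, sox9a of cartilage and tie1 of endothelium were below the Tag level on all arrays. Above it on all arrays were col2a1a of cartilage and fli1 and kdrl of endothelium. Fewer cells of a type and less RNA per cell cannot be told apart in such samples, and the part of these markers' cell types in the results on the Wnt and Hedgehog genes was not tested.

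**Figure D1:**
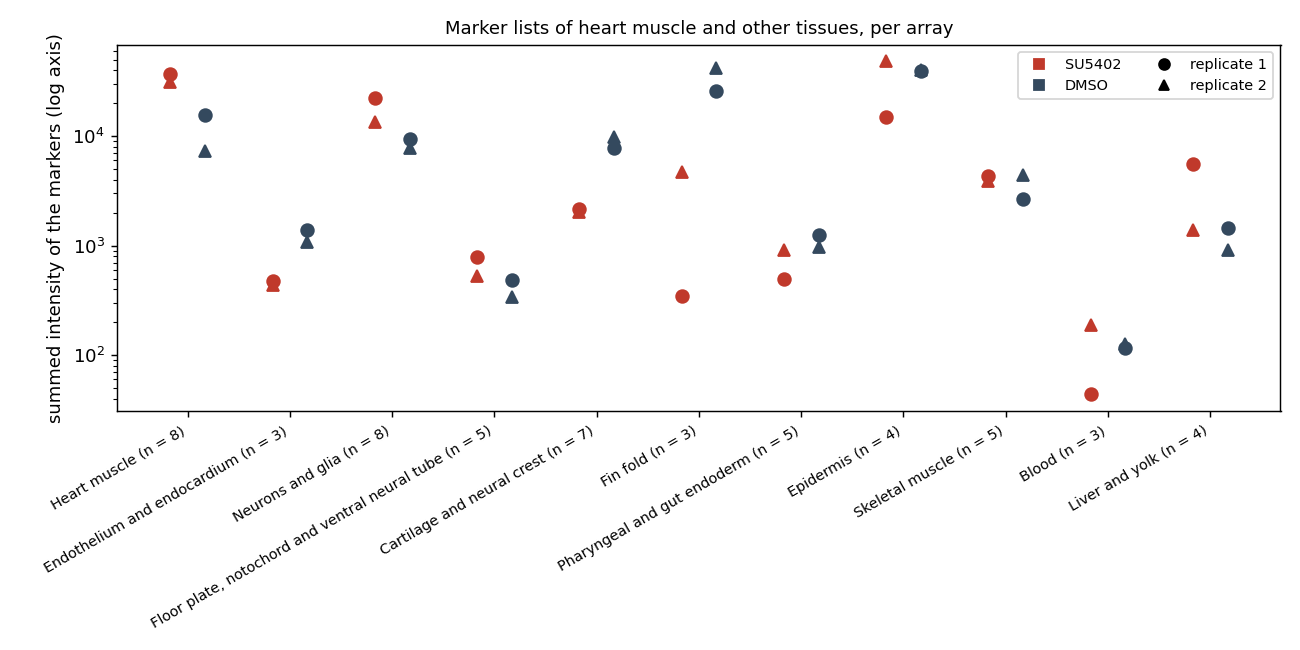
Summed intensity (log axis) of each marker list on each array, SU5402 arrays in red left of DMSO arrays in dark blue, circles for replicate 1 and triangles for replicate 2. The fin fold sums were 349 and 4661 with SU5402 and 25749 and 41590 with DMSO, and the heart muscle sums 36717 and 30937 with SU5402 and 15424 and 7313 with DMSO.

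Among the 55 Wnt and Hedgehog genes, 11 were lower with SU5402 at an unadjusted p under 0.05 in limma, which is 20.0%, against 8.04% of all named genes. By the same measure 1 was higher, 1.82% of the 55 against 5.31% of all named genes. Both SU5402 arrays lay below both DMSO arrays for 19 of the 55 genes, or 34.5%, against 26.3% of all named genes. Both lay above for 6, or 10.9%, against 19.3%. The median difference of the 55 was -0.10, against -0.08 over all named genes, so the middle of the whole set lay close to that of the array. This did not hold for the 27 genes above the Tag level on all 4 arrays. Their median was -0.29, with 22 differences below 0 and 5 above. The 5089 named genes above that level on all arrays had a median of -0.11, with 3002 differences below 0 and 2087 above. The 21 genes above it on no array had a median of 0.20, and the median of all named genes above it on no array was not computed. Whether the 27 or the 21 genes depart from other genes of like brightness was not tested. None of the 55 passed the adjusted threshold, and the lowest adjusted p among them was 0.255.

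The 12 genes at an unadjusted p under 0.05 were the Frizzled receptor genes fzd7b, fzd2 and fzd9b, the ligand genes wnt2 and wnt11, the inhibitor genes sfrp1a, dkk2, wif1 and dkk1b, the planar polarity gene prickle1a, the transcription factor gene tcf7l1b, and hhip of the Hedgehog pathway. Of these, dkk1b was the 1 that was higher. The intensities of prickle1a, sfrp1a, dkk2 and wnt2 lay below the Tag level on all 4 arrays. Of all 55 genes, 27 lay above the Tag level on every array, 7 on some arrays and 21 on none. Of the 8793 named genes, 5089 lay above it on every array and 2281 on none.

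**Figure D2:**
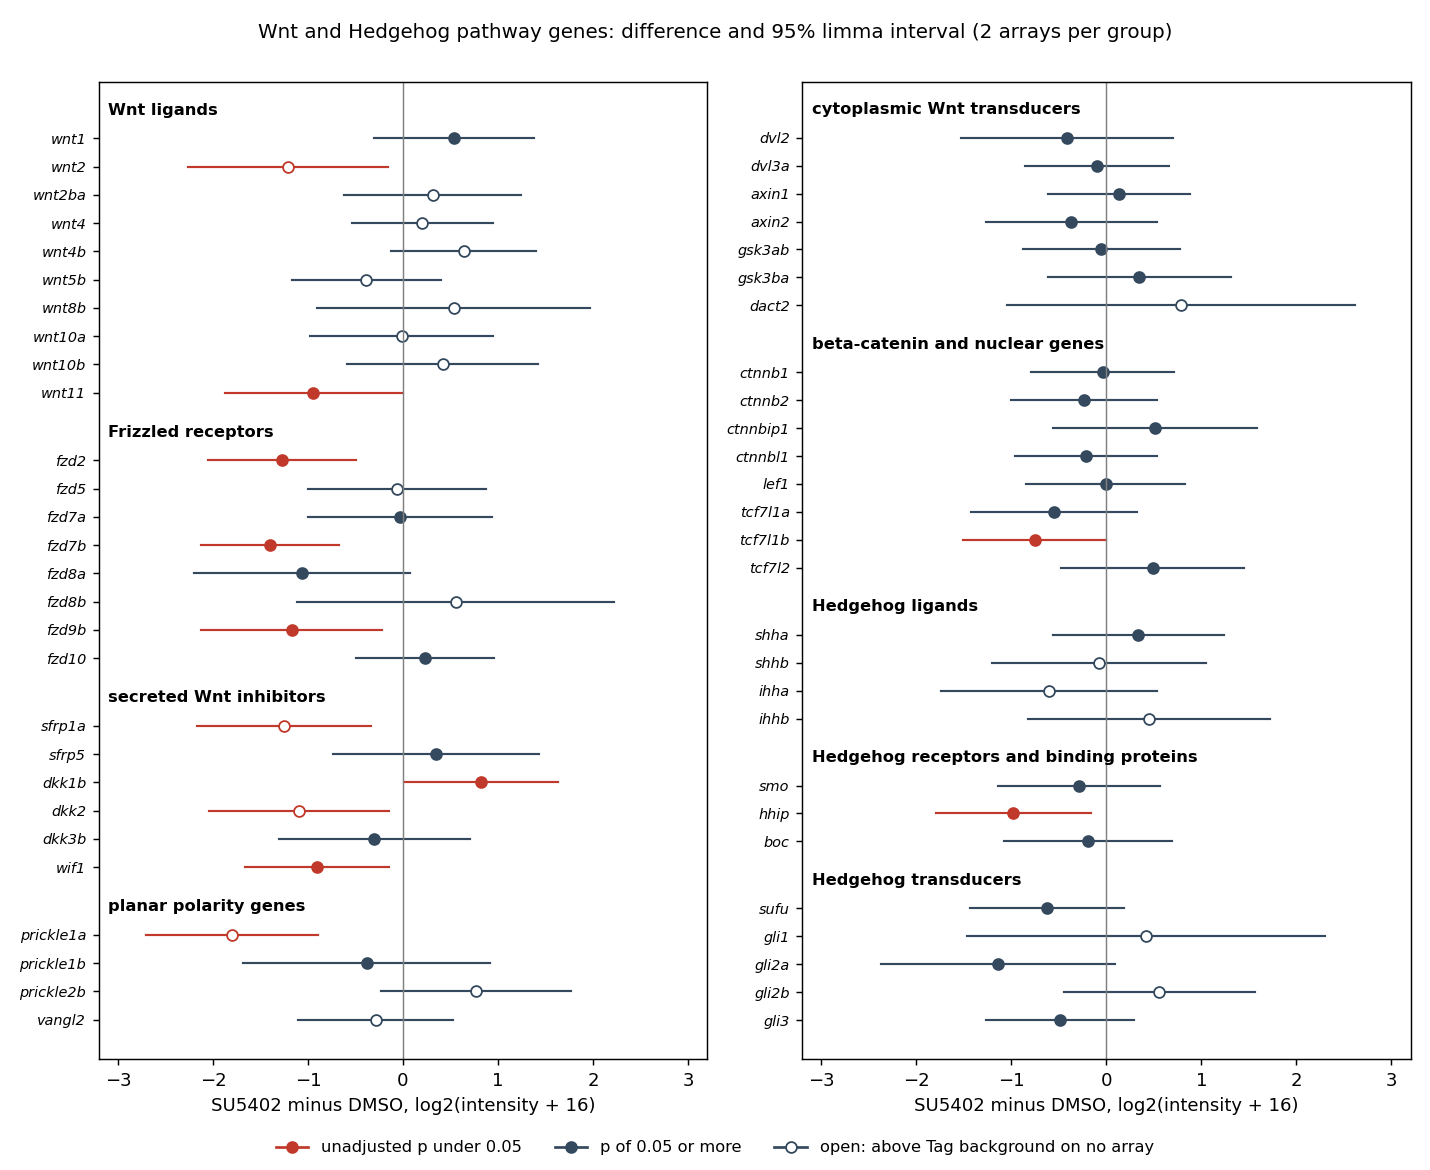
Difference of each of the 55 genes (SU5402 minus DMSO, log2(intensity + 16)) with its 95% limma interval, grouped by role. Red marks an unadjusted p under 0.05, which 11 genes reach below 0 and dkk1b above it, and open circles mark the 21 genes above the Tag level on no array.

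Of 8 measured Frizzled genes, which encode the multi-pass receptors for Wnt ligands, 3 (37.5%) were lower at an unadjusted p under 0.05 and 0 were higher, against 8.04% and 5.31% of all named genes. Their median difference was -0.56. The gene fzd7b had intensities of 348 and 363 in the SU5402 arrays, against 968 and 959 in the DMSO arrays. Its groups were far apart and its replicates close together. On the log2 scale fzd7b stood at 8.54 ± 0.04 with SU5402 and 9.94 ± 0.01 with DMSO (SD, n = 2 each). The difference was -1.40 (SE 0.30, 95% interval -2.13 to -0.67), or 2.64-fold lower, with an unadjusted p of 0.00340 and an adjusted p of 0.255 in limma. With any 1 array left out, fzd7b stayed between -1.43 and -1.37.

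The gene fzd2 had 182 and 147 in the SU5402 arrays and 460 and 379 in the DMSO arrays. All 4 values were above the Tag level, the SU5402 ones only slightly. The difference of fzd2 was -1.27 (SE 0.32), 2.41-fold lower, with an unadjusted p of 0.00729 in limma (adjusted 0.258). For fzd9b the intensities were 132 and 125 with SU5402, just below the Tag level, and 226 and 422 with DMSO. Against the Tag level, fzd9b was at least 2.14-fold lower with SU5402 by its group means (log2 means 7.17 and, in DMSO, 8.35). Without that bound its difference was -1.17 (unadjusted p 0.0239, adjusted 0.315 in limma). With values raised to the Tag level the difference was -1.10 and no longer passed (unadjusted p 0.0925 in limma). The fzd9b difference of -1.17 was -0.74 without DMSO replicate 2, the array where this gene was brightest.

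The gene fzd8a pointed the same way without reaching that threshold, at 371 and 276 with SU5402 and 1030 and 456 with DMSO. The groups did not overlap, but the DMSO arrays differed from each other by more than the nearer SU5402 and DMSO arrays did, and the difference of -1.06 had an interval of -2.20 to 0.07. Its paralogs and relatives did not all share this pattern. The gene fzd7a, the paralog of fzd7b, had 2556 and 3401 with SU5402 and 3964 and 2290 with DMSO, so its groups overlapped, and its difference was -0.03 (interval -0.997 to 0.934). Whether fzd7a and fzd7b differ in their response was not tested. The gene fzd10 was at 415 and 427 with SU5402 and at 352 and 362 with DMSO, apart but by only 0.23 (interval -0.50 to 0.96). Both fzd5 and fzd8b lay below the Tag level on all arrays, with overlapping groups.

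**Figure D3:**
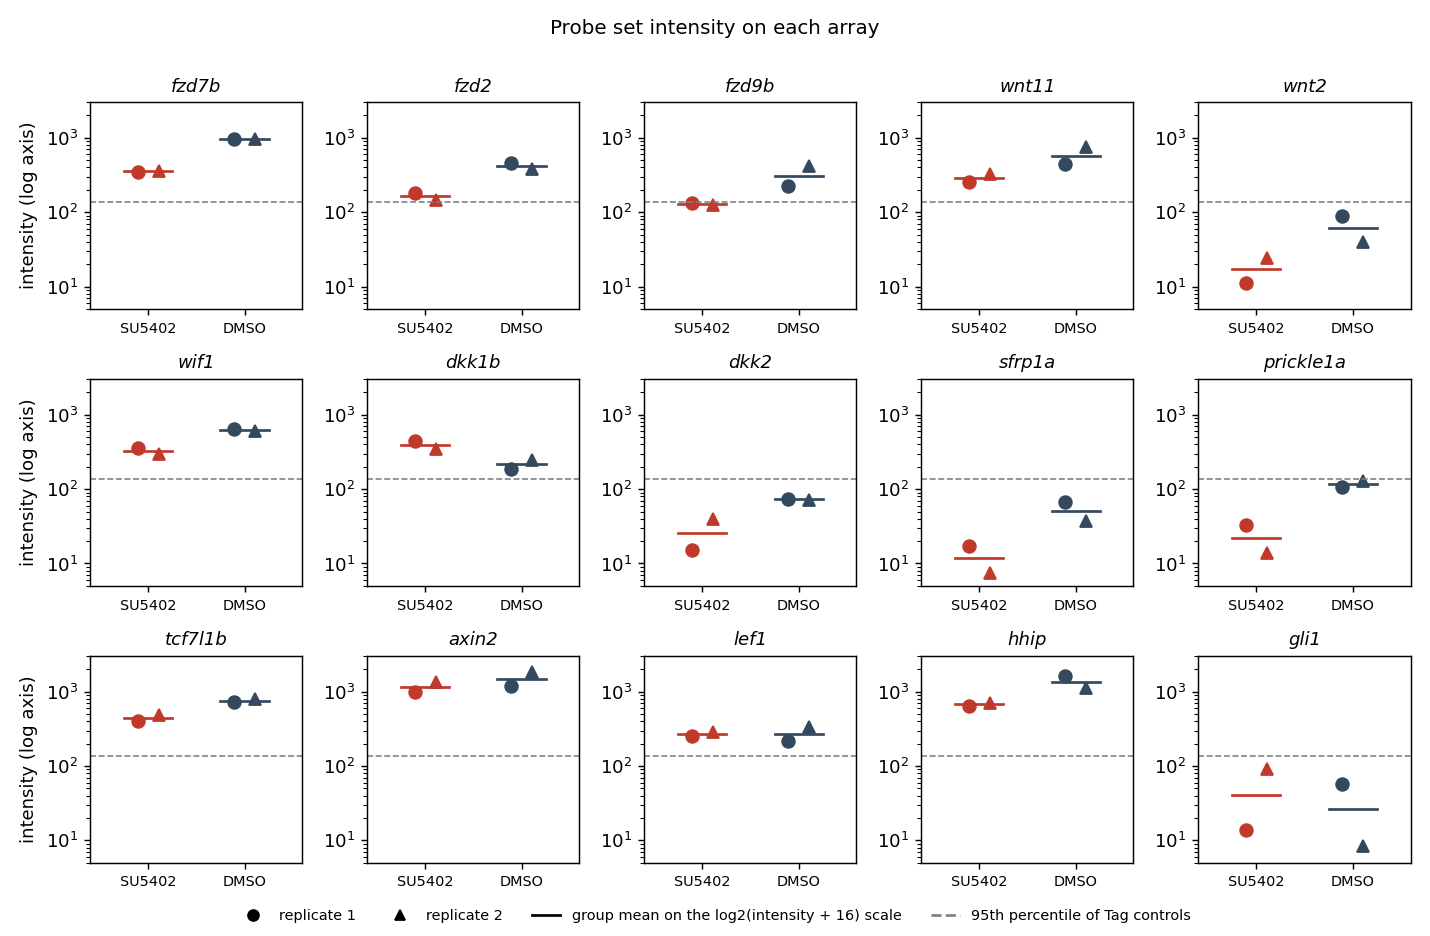
Intensity (log axis) on each array of the 12 genes at an unadjusted p under 0.05 and of the pathway readouts axin2, lef1 and gli1, with SU5402 left of DMSO, circles for replicate 1, triangles for replicate 2, bars for group means on the log2(intensity + 16) scale and a dashed line at the Tag level of 136. For fzd7b the SU5402 arrays read 348 and 363 and the DMSO arrays 968 and 959, while the values of lef1 and gli1 overlap between groups.

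Probe sets of ligand genes mostly had low intensities. Of 10 measured Wnt ligand genes, 8 lay below the Tag level on all 4 arrays, against 2281 of 8793 named genes. At an unadjusted p under 0.05, 2 of the 10 (20.0%, against 8.04% of all named genes) were lower. The median difference of the 10 ligand genes was 0.26. The gene wnt11, whose product is known for signalling without beta-catenin, was the 1 ligand gene above the Tag level on every array. It had 257 and 327 with SU5402, against 438 and 745 with DMSO, and its groups did not overlap. The difference of wnt11 was -0.94 (SE 0.38), 1.92-fold lower, with an unadjusted p of 0.0479 in limma (adjusted 0.381), and it was -0.57 without DMSO replicate 2. Its p also missed 0.05 with quantile normalization, median centring and a pseudocount of 1. For wnt2 the intensities were 11.3 and 24.1 with SU5402 and 89.1 and 39.8 with DMSO, all below the Tag level, so no fold is given. Its difference of -1.21 (SE 0.43) was -0.75 without DMSO replicate 1, -1.78 with a pseudocount of 1 and -0.63 with 64, where its unadjusted p was 0.0677 in limma.

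Of the 6 ligand genes with a difference above 0, wnt1, wnt4b and wnt4 had groups that did not overlap. These are 30% of the 10 ligand genes, against 19.3% of all named genes. Another 3 (30%, against 26.3% of all named genes) had both SU5402 arrays below both DMSO arrays. All values of wnt4 lay below the Tag level. The gene wnt1, a ligand gene of the midbrain and dorsal neural tube, had 208 and 137 with SU5402 and 121 and 102 with DMSO. Both SU5402 values were above the Tag level, the 137 only just, and both DMSO values were below it. By its group means wnt1 was at least 1.22-fold higher with SU5402, with a difference of 0.54 (interval -0.30 to 1.38, limma adjusted p 0.576). The values of wnt4b were 102 and 126 with SU5402 and 72.8 and 61.7 with DMSO, all below the Tag level (0.64, interval -0.13 to 1.40). Neuronal markers were higher in the same SU5402 arrays, as given above, and their part in the values of wnt1 was not tested. The differences of wnt5b, wnt2ba, wnt8b, wnt10a and wnt10b ran from -0.38 to 0.53, and each lay below the Tag level on all arrays.

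Of 6 measured genes for secreted Wnt inhibitors, 3 (50%) were lower and 1 (16.7%) higher at an unadjusted p under 0.05, against 8.04% and 5.31% of all named genes. Their median difference was -0.60. The gene dkk1b, whose Dickkopf product blocks the LRP co-receptors and which is itself a known target of beta-catenin, had 443 and 350 with SU5402, against 186 and 249 with DMSO. Both SU5402 arrays were above both DMSO arrays and all 4 above the Tag level. On the log2 scale it stood at 8.68 ± 0.23 with SU5402 and 7.86 ± 0.28 with DMSO (SD, n = 2 each). The difference of dkk1b was 0.82 (SE 0.33, interval 0.01 to 1.64), 1.77-fold higher, with an unadjusted p of 0.0481 in limma (adjusted 0.382). This p lay close to the threshold: it was 0.0652 with a pseudocount of 1, and it passed it in 1 of the 4 settings with 1 array left out, where the difference ran from 0.63 to 1.02.

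In contrast, wif1, whose product binds Wnt ligands outside the cell, had 362 and 295 with SU5402 and 647 and 603 with DMSO. The groups of wif1 were apart by more than either pair of replicates. Its difference was -0.90 (SE 0.31, interval -1.66 to -0.15), 1.87-fold lower, with an unadjusted p of 0.0268 in limma (adjusted 0.327), and -1.04 to -0.76 with 1 array left out, where the p stayed under 0.05 in 1 of 4 settings. The genes sfrp1a, a secreted Frizzled-related inhibitor gene, and dkk2 had differences of -1.25 (SE 0.37) and -1.10 (SE 0.38). Both were below the Tag level on all 4 arrays: sfrp1a had 17.1 and 7.495 with SU5402 and 66.1 and 37.8 with DMSO. The values of dkk2 were 15.1 and 39.8 with SU5402 and 74.0 and 72.1 with DMSO, and its difference was -0.68 without SU5402 replicate 1. With pseudocounts of 1 and 64 the difference was -2.04 and -0.60 for sfrp1a and -1.53 and -0.60 for dkk2. The genes dkk3b and sfrp5 had overlapping groups, with differences of -0.30 and 0.35.

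None of the 7 measured genes for Dishevelled, Axin, GSK3 and Dact2 reached an unadjusted p under 0.05 in limma, and none had groups that did not overlap. Over all named genes, 8.04% were called lower and 5.31% higher, and 26.3% and 19.3% had groups apart in these directions. With only 7 genes, 0 calls at that p cannot be told from 8.04% and 5.31%. Whether 0 of 7 with groups apart departs from 26.3% and 19.3% was not tested. Their differences ran from -0.41 for dvl2 (interval -1.53 to 0.70) to 0.78 for dact2 (interval -1.05 to 2.62), the last below the Tag level on all arrays. The gene axin2, an Axin gene that beta-catenin induces in many tissues and that serves as a readout of the pathway, had 984 and 1333 with SU5402 and 1200 and 1839 with DMSO. In both groups replicate 2 was brighter than replicate 1, and the groups overlapped. Its difference was -0.37 (SE 0.37, interval -1.27 to 0.53), and leaving out 1 array moved it to between -0.68 (DMSO replicate 1 left out) and -0.07 (DMSO replicate 2 left out).

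Beta-catenin itself is encoded by ctnnb1 and ctnnb2. The intensities of ctnnb1 were 8584 and 7413 with SU5402 and 7753 and 8678 with DMSO, with a difference of -0.04 (interval -0.79 to 0.71). Those of ctnnb2 were 5917 and 5894 with SU5402 and 6184 and 7835 with DMSO (-0.24, interval -1.003 to 0.53), with both SU5402 arrays the lower. The gene ctnnbip1, whose product keeps beta-catenin from TCF factors, read 6854 in SU5402 replicate 1 but 3205 in SU5402 replicate 2, against 3488 and 3098 with DMSO. SU5402 replicate 1 alone stood apart, and the difference was 0.51 (interval -0.57 to 1.59). The gene ctnnbl1, which the symbol rule also caught and whose product is known from the splicing machinery, was at -0.22.

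Of the nuclear partners of beta-catenin, tcf7l1b encodes a TCF factor known mainly as a repressor. It had 403 and 483 with SU5402, against 730 and 786 with DMSO, without overlap. Its difference was -0.76 (SE 0.31, interval -1.51 to -0.00486), 1.69-fold lower, with an unadjusted p of 0.0489 in limma (adjusted 0.384). That p lay close to the threshold: it missed 0.05 with quantile normalization, median centring, a pseudocount of 1 and a robust variance, and in 3 of the 4 settings with 1 array left out. Its paralog tcf7l1a had 80.8 and 131 with SU5402, both below the Tag level, and 178 and 142 with DMSO. Against the Tag level, tcf7l1a was at least 1.15-fold lower by its group means (log2 means 6.90 and, in DMSO, 7.45). Its difference of -0.55 had an interval of -1.43 to 0.32, which includes 0 (adjusted p 0.582 in limma). The gene lef1, both a partner and a known target of beta-catenin, had 256 and 284 with SU5402 and 220 and 334 with DMSO. Both SU5402 values of lef1 lay between the DMSO values, its difference was -0.01 (interval -0.85 to 0.83), and its sign turned with quantile normalization (0.07), median centring (0.04) and 2 of the 4 arrays left out. The last member, tcf7l2, was at 0.49 with overlapping groups.

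The planar polarity gene prickle1a had the largest difference of the 55 genes with a pseudocount of 16, but at intensities below the Tag level on all 4 arrays. It read 33.2 and 13.9 with SU5402 and 106 and 130 with DMSO, with the DMSO arrays close to that level. The difference was -1.80 (SE 0.37, interval -2.71 to -0.89), with an unadjusted p of 0.00297 in limma (adjusted 0.255), and no fold is given since neither group was above background. The size depended on the pseudocount: it was -2.39 with a pseudocount of 1 and -1.06 with 64, where fzd7b (-1.29) and fzd2 (-1.08) had larger differences. Its paralog prickle1b lay above the Tag level, and replicate 2 read higher than replicate 1 in both groups, at 652 and 1480 with SU5402 and 920 and 1801 with DMSO (-0.38, interval -1.68 to 0.92). The genes prickle2b and vangl2 lay below the Tag level on all arrays, at 0.77 and -0.29.

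Of the 12 Hedgehog genes, 4 had both SU5402 arrays below both DMSO arrays, or 33.3% against 26.3% of all named genes. Both lay above for 0 of the 12, against 19.3% of all named genes. Whether these shares of only 12 genes depart from those of the array was not tested. The groups of the 4 ligand genes overlapped. The gene shha, which encodes Sonic hedgehog, had 1835 and 1109 with SU5402 and 1192 and 1065 with DMSO. SU5402 replicate 2 fell within the range of the DMSO arrays, and the difference was 0.34 (interval -0.56 to 1.23). The other ligand genes shhb, ihha and ihhb lay below the Tag level on all arrays, with overlapping groups and differences from -0.60 to 0.45.

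The gene hhip encodes a membrane protein that binds Hedgehog ligands and limits their spread, and Gli factors are known to induce it. It was the 1 Hedgehog gene of 12 at an unadjusted p under 0.05, and that share of 8.33% is close to the 8.04% of all named genes called lower. It had 644 and 704 with SU5402, against 1606 and 1124 with DMSO, and every value was well above the Tag level. On the log2 scale hhip stood at 9.43 ± 0.09 with SU5402 and 10.41 ± 0.36 with DMSO (SD, n = 2 each). The difference was -0.98 (SE 0.33, interval -1.80 to -0.16), 1.97-fold lower, with an unadjusted p of 0.0264 in limma (adjusted 0.324). With 1 array left out it ran from -1.23 to -0.72, and the p stayed under 0.05 in 2 of those 4 settings.

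Of the intracellular genes, sufu, which encodes the inhibitor that holds Gli proteins in the cytoplasm, had 500 and 386 with SU5402 and 780 and 606 with DMSO, without overlap (-0.63, interval -1.44 to 0.19). The gene gli2a, for a Gli activator, had 268 and 722 with SU5402 and 967 and 1023 with DMSO. Its DMSO arrays lay close together and its SU5402 arrays far apart, so the difference of -1.14 had an interval of -2.37 to 0.08. The gene gli3, for a Gli protein known mainly as a repressor, had 155 and 193 with SU5402 and 226 and 274 with DMSO (-0.49, interval -1.26 to 0.29). These 3 genes had groups that did not overlap and did not reach an unadjusted p under 0.05.

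The readout gene gli1, which Hedgehog signalling induces, lay below the Tag level on all arrays, at 13.7 and 90.4 with SU5402 and 56.8 and 8.31 with DMSO. No direction can be read from it: its difference of 0.42 (interval -1.47 to 2.304) turned to -0.50 without SU5402 replicate 2 and to -0.37 without DMSO replicate 2. Its relative gli2b lay below the Tag level too, at 0.56. The gene smo, for the transducer Smoothened, had 193 and 178 with SU5402 and 289 and 182 with DMSO, with overlap (-0.29, interval -1.15 to 0.57). No gene of the Patched family, whose expression is the usual readout of the pathway, and none of nkd1 was among the 55 genes, and these were not analysed here.

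A second probe set was present for 8 of the 55 genes. For fzd9b it pointed the same way, at 109 and 77.6 with SU5402, both below the Tag level, against 237 and 630 with DMSO. That is at least 2.66-fold lower by its group means. Without this bound the difference was -1.90 (unadjusted p 0.00991, adjusted 0.265 in limma). The second probe sets of fzd7b and fzd8a were dimmer and showed smaller differences, at -0.54 (interval -1.50 to 0.43) and -0.52 (interval -1.62 to 0.58). For boc, a co-receptor gene for Hedgehog ligands, the probe sets disagreed in size. The brighter one read 187 and 304 with SU5402 and 303 and 250 with DMSO, with overlap (-0.19, interval -1.08 to 0.69). The dimmer one read 177 and 151 with SU5402 and 341 and 320 with DMSO, without overlap, at -0.94 (SE 0.30, unadjusted p 0.0211, adjusted 0.305 in limma). The differences of axin1 and ctnnb1 were within 0.14 of 0 in both probe sets. For fzd10 and sfrp5 the sign turned between probe sets (-0.50 and -0.83 in the dimmer ones, both below the Tag level on all arrays).

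**Figure D4:**
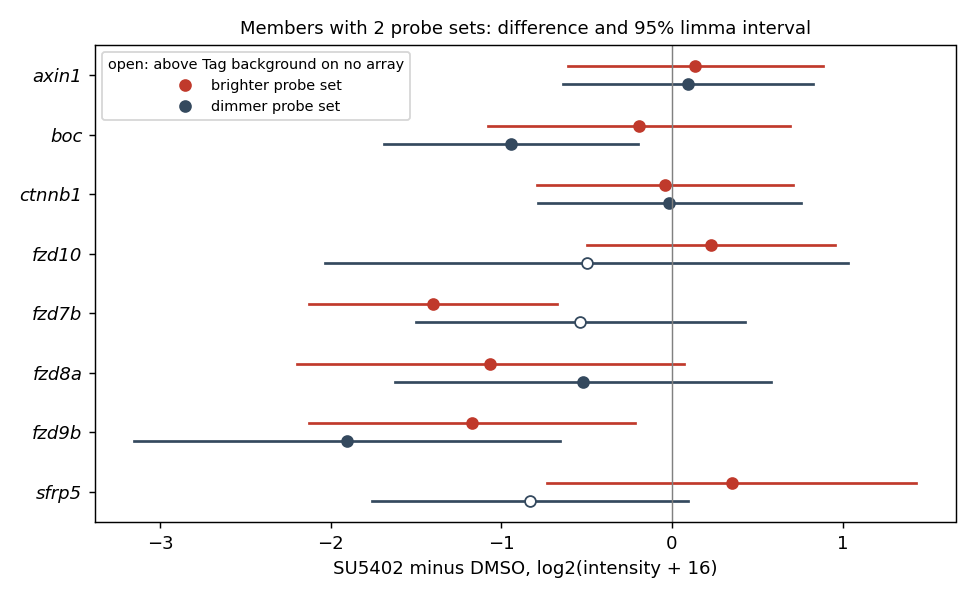
Difference (SU5402 minus DMSO, log2(intensity + 16)) with its 95% limma interval for both probe sets of the 8 genes that have a second one, the brighter in red and the dimmer in dark blue, with open circles for probe sets above the Tag level on no array. For boc the brighter probe set stands at -0.19 and the dimmer at -0.94, and for fzd9b both lie below 0.

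Further genes of the pathways came from lists of 139 symbols. Of 60 listed other Wnt genes, 22 were measured, and 1 was lower and 1 higher at an unadjusted p under 0.05 (4.55% each, against 8.04% and 5.31% of all named genes), with a list median of -0.03. The gene ror2, for a co-receptor of Wnt ligands that signals without beta-catenin, had 134 and 127 with SU5402, just below the Tag level, against 324 and 419 with DMSO. It was at least 2.53-fold lower by its group means (log2 means 7.19 and, in DMSO, 8.59). Without that bound its difference was -1.39 (unadjusted p 0.00464, adjusted 0.255 in limma). The casein kinase gene csnk1e, whose product phosphorylates Dishevelled, had 420 and 413 with SU5402 and 259 and 173 with DMSO, a difference of 0.92 (SE 0.34, adjusted p 0.349 in limma). The carrier gene wls, needed for the release of Wnt ligands, read 2348 and 3210 with SU5402 and 4458 and 4025 with DMSO, without overlap (-0.62, interval -1.42 to 0.18). Of 29 listed other Hedgehog genes, 9 were measured, and 1 (11.1%, against 8.04% of all named genes) was lower. This was the kinase gene stk36, with 12.0 and 38.4 with SU5402 and 77.7 and 65.2 with DMSO, below the Tag level on all arrays (-1.16). The list median was -0.03.

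Genes known as targets of either pathway in some tissue were listed too. Of 16 measured Wnt target genes 3 (18.8%) were lower and 0 higher at an unadjusted p under 0.05, against 8.04% and 5.31% of all named genes. Their median was -0.23. The homeobox genes msx1b and msx3, known from fin bud, neural crest and dorsal neural tube, were at -1.80 (SE 0.62) and -1.75 (SE 0.48). In msx1b the SU5402 arrays read 239 and 756 and the DMSO arrays 1072 and 2166, and in msx3 the SU5402 arrays read 237 and 510 and the DMSO arrays 919 and 1587. The cyclin D gene ccnd1 had 1263 and 1062 with SU5402 and 2879 and 2164 with DMSO, a difference of -1.10 (SE 0.33). The heart and neural crest gene tbx2b was at 0.06, and sp5l, below the Tag level on all arrays, at -0.05.

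Of 18 measured Hedgehog target genes, 3 (16.7%) were higher and 4 (22.2%) lower at an unadjusted p under 0.05, against 5.31% and 8.04% of all named genes, with a median of -0.43. The 3 higher ones are known from ventral neural progenitors. The gene olig2, for a transcription factor of motor neuron and oligodendrocyte progenitors, had 1247 and 931 with SU5402, against 406 and 450 with DMSO (1.30, SE 0.32, adjusted p 0.257 in limma). The gene nkx2.2a had 292 and 190 with SU5402 and 130 and 113 with DMSO, with both DMSO values below the Tag level, and was at least 1.66-fold higher. Its paralog nkx2.2b had 170 and 78.2 with SU5402 and 40.6 and 56.4 with DMSO (1.05, SE 0.42), above the Tag level on 1 SU5402 array alone. Neuronal markers were higher on the same arrays (4 of 8). Of 5 markers of floor plate, notochord and ventral neural tube, 1 was higher, which was nkx2.2a itself, and 3 lay below the Tag level on all arrays. Those 5 summed to 792 and 533 with SU5402 and to 481 and 338 with DMSO. The part of either marker list was not tested. Lower were hoxa13b, a Hox gene of the distal fin bud (-2.25, SE 0.41), the muscle determination genes myod1 and myf5 (-1.58 and -1.30, both below the Tag level on all arrays), and the forkhead gene foxc1a (-1.21, SE 0.47). For myod1 the intensities were 15.5 and 25.9 with SU5402 and 75.3 and 113 with DMSO, and for myf5 27.5 and 27.9 with SU5402 and 92.5 and 90.3 with DMSO. Of 5 listed skeletal muscle markers, which include myod1, 2 were lower, the other being myog, at least 1.58-fold lower. The sums of the 5 were 4324 and 3855 with SU5402 and 2638 and 4400 with DMSO. These sums came mostly from the bright genes ckma (difference 0.67) and acta1a (0.12), while mylpfa was at -1.27 with overlapping groups. A sum therefore says little about the dimmer markers, and the part of the muscle markers was not tested. For foxc1a the intensities were 447 and 458 with SU5402 and 1648 and 687 with DMSO. The gene hoxa13b had 19.5 and 8.19 with SU5402 and 90.6 and 167 with DMSO, so that 1 DMSO array alone was above the Tag level. Fin fold markers were lower on the same SU5402 arrays (3 of 3), and their part was not tested either.

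**Figure D5:**
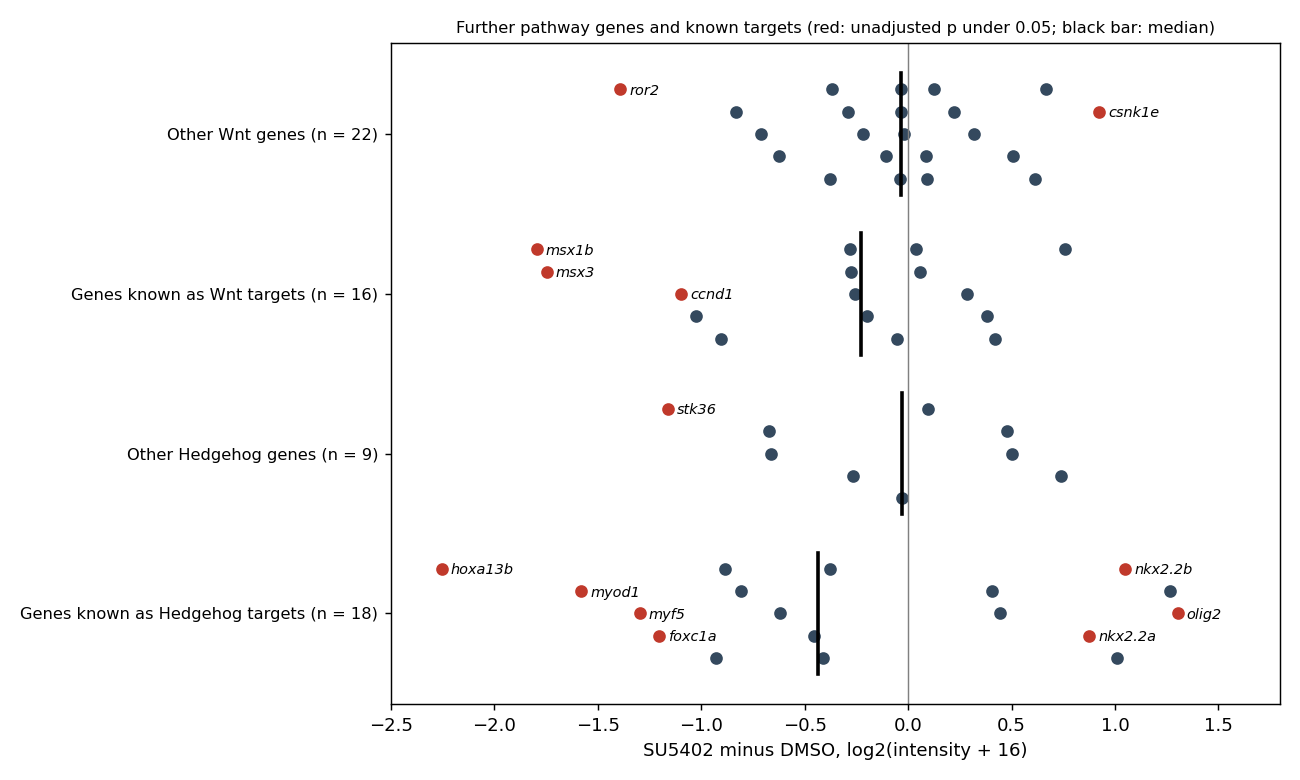
Difference (SU5402 minus DMSO, log2(intensity + 16)) of each measured gene of the 4 further lists, 1 point per gene, with the list median as a black bar and genes at an unadjusted p under 0.05 in red with their names. The medians lie at -0.03, -0.23, -0.03 and -0.43 from top to bottom, and the Hedgehog target genes spread from -2.25 to 1.30.

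The count of lower genes fell with any 1 array left out and with values raised to the Tag level. The same counts over all named genes were not made in these settings. A fit with fewer arrays also has less power, so the fall cannot be read as a trait of these genes. In place of 11 of the 55 genes, 6 were lower at an unadjusted p under 0.05 when SU5402 replicate 1 was dropped and 10 when SU5402 replicate 2 was dropped. Dropping DMSO replicate 1 left 4, and dropping DMSO replicate 2 left 7. The count of higher genes, 1 with all arrays, was 0, 4, 2 and 0 in the same order. The group reduced to 1 array is then assumed to vary like the other group. With every value below the Tag level raised to it, fzd9b, whose SU5402 values lay below it, no longer passed (-1.10, unadjusted p 0.0925 in limma). In that setting 5 genes were lower, namely fzd7b, fzd2, wif1, tcf7l1b and hhip, and dkk1b no longer passed (unadjusted p 0.0585 in limma). All values of these 6 genes and of wnt11 lie above the Tag level, so their differences did not change. Their p moved only because limma pools the variance over all probe sets, many of them constant in this setting. For wnt11 the unadjusted p became 0.111, and for fzd7b 0.000124. Passing or failing here is therefore no check of these genes against background. Of these 5, fzd7b was the 1 whose p stayed under 0.05 in each of the 4 settings with an array left out.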

How the data were processed

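The authors deposited 1 linear intensity for each probe set on each of 4 Affymetrix Zebrafish arrays. How probes were summarised and scaled is not given in the sources used here. All 4 arrays had a mean of 500.1 once 2% of values was trimmed from either end, while their medians differed (177 and 173 with SU5402, 184 and 179 with DMSO), so the authors' intensities look scaled per array and not quantile normalised. No columns of other samples were present (0).

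Symbols came from the platform annotation and were updated by Entrez identifier through a RefSeq gene table. All 55 genes were matched. The annotation gave 1 symbol to 10795 of the 15502 tested probe sets, several to 135 and none to 4572. Tests excluded 115 control probe sets. A limma model (version 3.58.1, R 4.3.3) of log2(value + 16) with treatment as its only term was fitted over all probe sets, two-sided, with Benjamini-Hochberg adjustment over all probe sets. The fit was tested on simulated data with 200 changed probe sets. The Tag level is the 95th percentile of 17 Tag control probe sets over the 4 arrays. Where every array of 1 group lay below it, the fold is a lower bound against it. The bound is on the fold between group means and leaves out their spread.

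The genes, lists and tests were chosen with earlier results of these data known. Values on every array are given for those of the 55 genes at an unadjusted p under 0.05 and for axin2, lef1, dkk1b, gli1 and hhip. Those given for other genes (such as fzd8a, gli2a, sufu, boc and shha) were chosen after their values were seen. Alternatives were a replicate block, quantile normalization, median centring, pseudocounts of 1 and 64, leaving out the dimmest 25% or 50% of probe sets, averaging probe sets per gene, a variance trend, a robust variance, each array left out and values raised to the Tag level. No sequences were used here.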

Additional observations from a re-analysis of the deposited data

How the results depend on the processing

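Of 11 genes lower and 1 higher at an unadjusted p under 0.05 in limma, the lower count was 7 with the dimmest 50% of probe sets left out (29 of the 55 genes then being tested) and 5 with values raised to the Tag level, where genes below it on every array carry no difference and gave no value. It ran from 4 to 10 with 1 array left out. The higher count was 0 with a pseudocount of 1 and ran from 0 to 4 with 1 array left out. In the other settings that keep all arrays both counts stayed within 1.5 times, though the 1 gene higher at the Tag level was not dkk1b. For genes above the Tag level on all arrays, such as dkk1b, raising values changed the p through the pooled variance alone. The count at an adjusted p under 0.05 was 0 in every setting run. For the 15 genes named by rule, settings that keep all arrays gave 136 values with the same direction and side of the threshold, 13 that no longer passed it and 2 reversed, lef1 at 0.0736 with quantile normalization and 0.0409 with median centring. With 1 array left out, 23 no longer passed, and the reversed values lay in lef1 (from -0.29 to 0.28, with 0.06 without SU5402 replicate 1) and gli1 (from -0.50 to 1.34, with -0.37 without DMSO replicate 2). With a replicate block, 13 genes were lower and 1 higher, and dkk1b no longer passed (0.82, unadjusted p 0.0517). Deviations of same-numbered arrays from their group means correlated at 0.276 across probe sets, and 2 pairs do not show that the numbers pair the samples. Signal over background limits 21 of the 55 genes, which lay above the Tag level on no array.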
